A study of Mus musculus with 4 samples.

Results

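The Notch pathway carries signals between touching cells, and its receptors, their ligands and the target gene Hes1 were followed across 4 libraries of mouse embryonic stem (ES) cells. The members were the 4 receptor genes Notch1, Notch2, Notch3 and Notch4, the 5 ligand genes Jag1, Jag2, Dll1, Dll3 and Dll4, and Hes1, a list of 10 genes taken by name out of 23254 genes in the tables. All 10 were found, each with 1 RefSeq transcript row, and 9 reached 1 FPKM (sequenced fragments scaled to the length of the transcript and to the size of the library) in at least 1 library. Dll4 did not.

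The ES cells were of a C57BL/6X129Sv mix, below passage 20, and grew in serum medium with leukemia inhibitory factor. They were p53+/+ or p53-/-, where p53, encoded by Trp53, is the transcription factor activated by DNA damage, and each genotype was left untreated or given Adriamycin (doxorubicin, a topoisomerase II poison that breaks DNA) at 0.5 uM for 8 h. RNA with a poly(A) tail was sequenced, and each of the 4 groups, p53+/+ untreated, p53+/+ Adriamycin, p53-/- untreated and p53-/- Adriamycin, has 1 library. With no replicates, no difference below has a replicate check or a p-value. The labels do not say whether each genotype is 1 clone. In bulk RNA, fewer cells of a type and less RNA per cell cannot be told apart.

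In the pathway, a ligand of the Jagged or Delta-like family on one cell binds a Notch receptor on its neighbour. The receptor is then cut by an ADAM protease and by gamma-secretase, and the freed intracellular part enters the nucleus, where it joins the DNA-binding protein RBPJ and Mastermind coactivators to switch on genes of the Hes and Hey families. In ES cell cultures the pathway is known mainly for its part in the choice of lineage on exit from self-renewal, where Notch signals favour neural fates.

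The libraries held 3.34 to 4.32 gigabases of aligned sequence, and 11556 to 12450 genes reached 1 FPKM in each. Trp53 had 216 FPKM without and 165 FPKM with Adriamycin in the p53+/+ genotype, and 78.6 and 76.5 FPKM in the other, so its transcript was lower but present in the cells labelled p53-/-. The p53 target Mdm2 went from 32.6 to 257 FPKM in the p53+/+ genotype and from 17.7 to 19.9 FPKM in the p53-/- genotype. The summed level of 6 ES cell markers lay between 1173 and 1931 FPKM in every library. Markers of other cell types also differed between the genotypes. The 7 fibroblast markers summed to 8.51 and 14.1 FPKM in the p53+/+ libraries, with Col3a1, Lum and Dcn listed at 0 in both, against 268 and 223 FPKM in the p53-/- libraries. The 6 primitive endoderm markers summed to 23.6 and 20.9 FPKM against 3.45 and 4.29 FPKM. The part of these markers in the levels of the Notch genes was not tested.

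The stretches before the start sites of the members that differed most after Adriamycin are shown first, because these genes differed in the same direction or, for Notch4, in the other. They are the 250 bases before each start in the RefSeq table of GRCm38.p6, read 5′ to 3′ on the gene's own strand. Capitals mark the N box CACNAG, the letters bound by Hes repressors, on either strand. Of the 10 members 9 had an entry, Dll1 with 2 windows, of which the one nearer the end of the gene is shown. Hes1 had none.
Notch3, chr17:32166891-32167140, minus strand: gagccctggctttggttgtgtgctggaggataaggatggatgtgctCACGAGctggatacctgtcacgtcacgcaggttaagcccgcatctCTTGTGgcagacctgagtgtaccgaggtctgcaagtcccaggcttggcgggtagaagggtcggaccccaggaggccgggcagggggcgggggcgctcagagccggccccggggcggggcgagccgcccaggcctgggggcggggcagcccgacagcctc
Notch1, chr2:26503823-26504072, minus strand: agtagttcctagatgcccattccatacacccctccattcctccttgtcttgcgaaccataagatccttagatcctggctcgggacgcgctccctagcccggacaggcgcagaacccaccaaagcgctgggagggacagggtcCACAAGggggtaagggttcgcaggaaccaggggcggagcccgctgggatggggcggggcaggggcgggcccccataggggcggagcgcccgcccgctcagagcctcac
Jag2, chr12:112929496-112929745, minus strand: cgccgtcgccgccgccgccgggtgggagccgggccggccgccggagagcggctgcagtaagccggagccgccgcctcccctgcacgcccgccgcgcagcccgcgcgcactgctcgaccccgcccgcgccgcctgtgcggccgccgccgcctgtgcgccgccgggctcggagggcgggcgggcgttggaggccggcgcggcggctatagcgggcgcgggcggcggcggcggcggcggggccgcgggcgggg
Dll1, chr17:15375824-15376073, minus strand: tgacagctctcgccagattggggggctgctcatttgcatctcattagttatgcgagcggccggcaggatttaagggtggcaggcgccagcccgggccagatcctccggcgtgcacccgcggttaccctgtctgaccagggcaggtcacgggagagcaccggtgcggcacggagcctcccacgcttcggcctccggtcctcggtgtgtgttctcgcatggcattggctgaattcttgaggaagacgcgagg
Notch4, chr17:34564045-34564294, plus strand: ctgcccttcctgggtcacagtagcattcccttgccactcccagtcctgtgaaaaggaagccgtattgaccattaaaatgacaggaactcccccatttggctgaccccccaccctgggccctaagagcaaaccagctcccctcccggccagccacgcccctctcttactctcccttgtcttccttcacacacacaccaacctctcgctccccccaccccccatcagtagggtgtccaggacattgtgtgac

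The N box was found at 2 places in the Notch3 stretch, once in that of Notch1 and nowhere in those of Jag2, Dll1 and Notch4. It also occurred once each before Notch2 and Dll4, and 36.7% of all 32851 windows of this length hold it, so its presence before these genes is common. The RBPJ core TGGGAA, held by 21.6% of all windows on either strand, and its longer form CGTGGGAA, which contains the core and is held by 0.636%, were in none of the members' windows. The decamer of the p53 response element, a motif added after the values of these genes were known and held by 7.13% of all windows, was in none of them either. These searches describe the printed letters only. The Jag2 stretch consisted of G and C to 87.2%, against 68.8% for Notch3, 64.0% for Dll1 and 58.4% for Notch4.

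Adriamycin was accompanied in p53+/+ cells by much higher transcripts of Notch3 and Jag2, higher Dll1 and Notch1, and lower Notch4. Hes1, Notch2 and Dll3 differed little. Genes called higher or lower below are those with a step of at least 1 in log2(FPKM + 1), a scale on which changes of low genes look smaller than they are. By this rule 4 members were higher and 1 lower. Over all 13199 genes with at least 1 FPKM in a library, 11.4% were higher and 2.81% lower in the same comparison. The median difference over the 10 members, Dll4 included, was 0.53, against 0.05 over these 13199 genes. Medians over all genes given below are also over genes with at least 1 FPKM in a library. Of the 6 ES cell markers 2, Nanog and Zfp42, were lower in the same comparison and 0 were higher, and their summed level went from 1931 to 1173 FPKM, against 1415 and 1210 FPKM in the p53-/- libraries. The part of this in the values of the Notch genes was not tested.

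**Figure D1:**
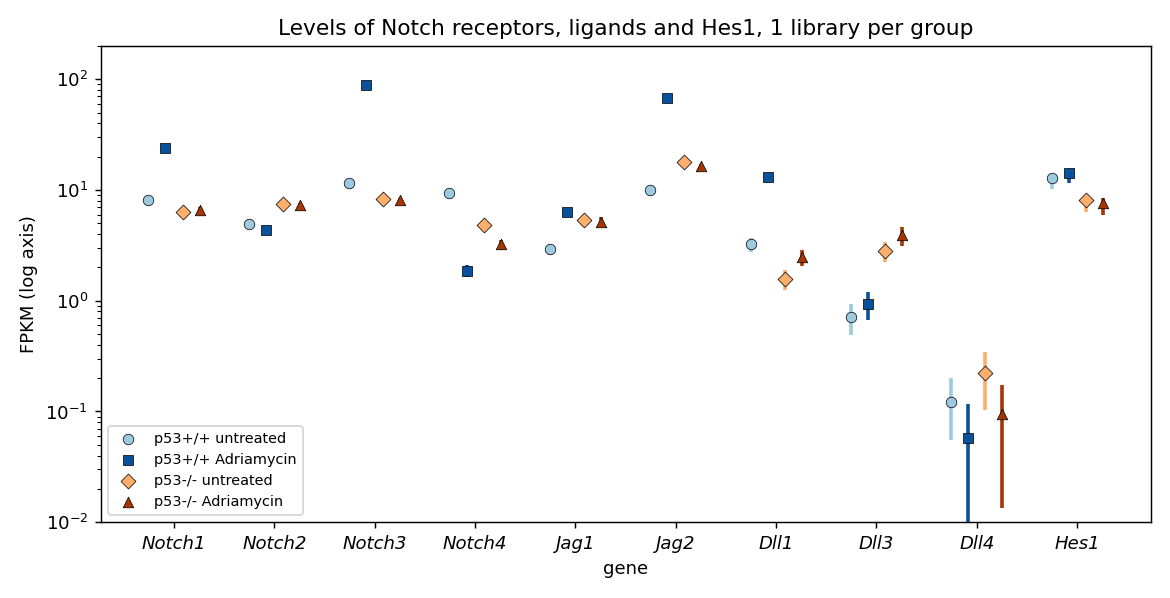
FPKM of each member (log axis) in the 4 libraries, 1 point per library, with vertical lines for the deposited lower and upper bounds; the lower bound of Dll4 in treated p53+/+ cells is 0 and its line is drawn to the axis. The treated p53+/+ library is the highest for Notch1, Notch3, Jag1, Jag2, Dll1 and Hes1 and the lowest for Notch2, Notch4 and Dll4. Its bounds overlap those of another library for Jag1, Dll3, Dll4 and Hes1.

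Among the receptors, Notch3 showed the widest range. Notch3 (NM_008716, chromosome 17, 32257838 to 32303797 in mm9) stood at 11.6 FPKM in untreated p53+/+ cells, 89.3 FPKM in treated p53+/+ cells, 8.36 FPKM in untreated p53-/- cells and 8.06 FPKM in treated p53-/- cells. Only the treated p53+/+ library was high, and its deposited bounds of 86.2 to 89.9 FPKM lay far from the 11.0 to 12.2 FPKM of the untreated one. These bounds cover counting and read assignment within a library, not differences between cultures. The difference was 2.84, a 7.69-fold ratio of FPKM, which placed Notch3 at rank 95 from the top among the 13199 genes. In p53-/- cells it was -0.05.

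Notch1 (NM_008714, chromosome 2, 26313422 to 26359342 in mm9), the receptor with the best studied roles in early development, had the second largest response of the receptors upward. Its level was 8.10 FPKM before and 23.8 FPKM after treatment of p53+/+ cells, with 6.35 and 6.57 FPKM in the p53-/- libraries. The treated p53+/+ library was again the one that stood apart, by 1.45 or 2.94-fold, while the p53-/- libraries differed by 0.04 with overlapping bounds.

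Notch4 (NM_010929, chromosome 17, 34701240 to 34725488 in mm9), a receptor known mainly from endothelium, went the other way. It stood at 9.44 FPKM in untreated p53+/+ cells (bounds 8.79 to 9.95) and 1.87 FPKM in treated ones (1.65 to 2.09), and at 4.81 FPKM (4.37 to 5.24) and 3.24 FPKM (2.90 to 3.57) in p53-/- cells. The difference in p53+/+ cells was -1.86, or 5.05-fold less, at rank 19 from the lowest of the 13199 genes. The p53-/- difference of -0.46 did not reach the step, but it had the same direction and its bounds did not overlap. Of 6 endothelial markers 3 stayed below 1 FPKM in every library, and Tek, which reached 9.35 FPKM in treated p53+/+ cells, was the 1 member of that list that was higher there. The other two past the filter had less transcript after treatment of p53+/+ cells, Pecam1 with 21.2 and 18.0 FPKM (-0.23) and Esam with 2.15 and 0.998 FPKM (-0.66), both short of the step. The part of these markers in the Notch4 values was not tested.

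Notch2 (NM_010928, chromosome 3, 97817461 to 97954290 in mm9) was the receptor that differed least with treatment. Its levels, untreated first, were 4.91 and 4.33 FPKM in the p53+/+ genotype and 7.43 and 7.26 FPKM in the p53-/- genotype. Both p53-/- libraries stood above both p53+/+ libraries. The responses were -0.15 and -0.03.

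The make-up of the receptor transcripts differed between the treated p53+/+ library and the rest. Summed over the 4 receptors, FPKM went from 34.1 to 119 in p53+/+ cells, 3.50-fold, and from 26.9 to 25.1 in p53-/- cells. Notch3 made up 34.1% of this sum in untreated p53+/+ cells, 74.8% in treated p53+/+ cells and 31.0% and 32.1% in the p53-/- libraries. Notch4 made up 27.7% before and 1.57% after treatment in p53+/+ cells, moving from the second to the last place among the receptors. In p53-/- cells it was last before and after treatment, at 17.8% and 12.9%.

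**Figure D2:**
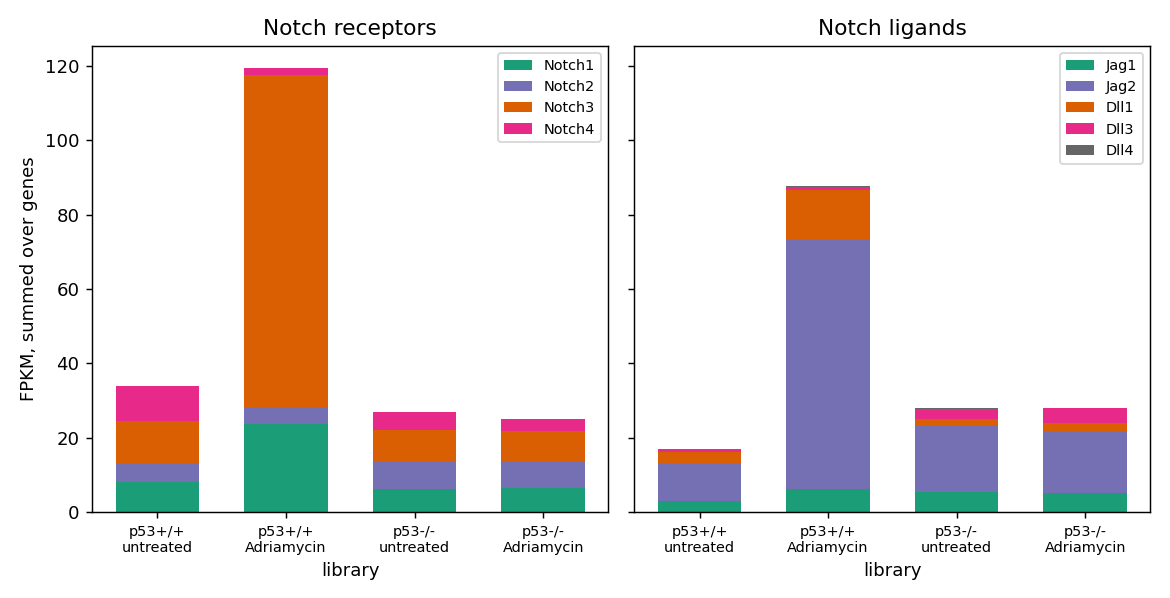
Summed FPKM of the 4 receptors (left) and the 5 ligands (right) in each library, 1 bar per library, divided by gene, with the axis starting at 0. The treated p53+/+ bars reach 119 FPKM for receptors and 87.6 FPKM for ligands, mostly Notch3 and Jag2, while the other bars stay at or below 34.1 FPKM.

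Of the ligands, Jag2, a Jagged ligand with a large extracellular part, was the most abundant in every library. Jag2 (NM_010588, chromosome 12, 114146801 to 114167706 in mm9) stood at 10.1 FPKM in untreated p53+/+ cells (bounds 9.12 to 10.8), 67.2 FPKM in treated ones (62.9 to 67.5), 18.1 FPKM in untreated p53-/- cells (16.5 to 19.0) and 16.4 FPKM in treated p53-/- cells (14.9 to 17.1). The treated p53+/+ library was the highest and the untreated p53+/+ library the lowest. The p53+/+ difference was 2.62, or 6.68-fold, at rank 134 from the top, and the p53-/- difference was -0.14.

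Dll1 (NM_007865, chromosome 17, 15504318 to 15512787 in mm9), a Delta-like ligand that activates Notch in neighbouring cells, was higher as well. Its level was 3.26 FPKM before and 13.1 FPKM after treatment of p53+/+ cells, a difference of 1.73 or 4.01-fold, with 1.58 and 2.48 FPKM in the p53-/- libraries. Dll1 was the 1 member with a higher value after treatment in p53-/- cells whose bounds (1.26 to 1.90 and 2.05 to 2.90 FPKM) did not overlap, although its difference of 0.43 stayed below the step.

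Jag1 (NM_013822, chromosome 2, 136907187 to 136942256 in mm9), the other Jagged ligand, lay just short of the step. It went from 2.93 FPKM (2.60 to 3.26) to 6.32 FPKM (5.77 to 6.83) in p53+/+ cells, a difference of 0.89 or 2.15-fold, against 5.37 and 5.15 FPKM in the p53-/- libraries. The untreated p53+/+ library was the low one, since the other 3 lay close together. With a pseudocount of 0.1 FPKM the difference was 1.08 and Jag1 counted as higher.

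Dll3 (NM_007866, chromosome 7, 29078574 to 29086804 in mm9), a divergent Delta-like protein that is known to inhibit Notch within the cell that makes it, followed genotype rather than treatment in its levels. These were, untreated first, 0.721 and 0.937 FPKM in the p53+/+ genotype and 2.84 and 3.92 FPKM in the p53-/- genotype, with overlapping bounds within each genotype. Its responses were 0.17 and 0.36.

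Dll4 (NM_019454, chromosome 2, 119151520 to 119161402 in mm9), the Delta-like ligand typical of sprouting vessels, was near the limit of measurement at 0.123, 0.0579, 0.222 and 0.0941 FPKM in the 4 libraries, in the order untreated and treated p53+/+, untreated and treated p53-/-. Its bounds overlapped between untreated and treated cells in both genotypes, so no response was detectable at this depth. The row of Gm14207 overlaps it and reached at most 0.112 FPKM. Whether the counting used strand is not given, so reads of this pair cannot be told apart.

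Together the ligands summed to 17.1 FPKM before and 87.6 FPKM after Adriamycin in p53+/+ cells, 5.12-fold, and to 28.1 and 28.0 FPKM in p53-/- cells. Jag2 made up 58.9%, 76.7%, 64.4% and 58.4% of the sum in these libraries in turn. The next ligand in order was Dll1 in both p53+/+ libraries and Jag1 in both p53-/- libraries, although the bounds of Dll1 and Jag1 overlapped in untreated p53+/+ cells.

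Hes1, a basic helix-loop-helix repressor and the most widely used readout of Notch activity, did not follow the receptors and ligands in size. Hes1 (NM_008235, chromosome 16, 30065443 to 30067882 in mm9) stood at 12.8 FPKM (10.2 to 12.9) in untreated p53+/+ cells and 14.2 FPKM (11.5 to 14.5) in treated ones, with overlapping bounds and a difference of 0.14. In p53-/- cells it stood at 8.18 FPKM (6.35 to 9.06) and 7.68 FPKM (5.91 to 8.47), a difference of -0.08. Both p53+/+ libraries were higher than both p53-/- libraries, and their bounds did not overlap at either condition. In untreated p53+/+ cells Hes1 and Notch3 were the most abundant members, with overlapping bounds, and after treatment Hes1 was the fourth, next to Dll1.

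**Figure D3:**
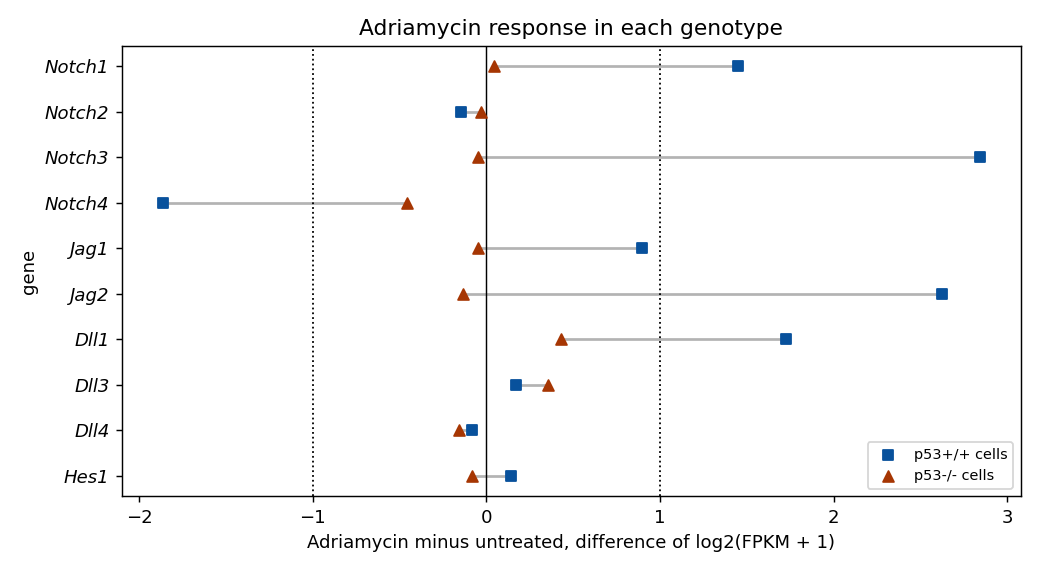
Adriamycin minus untreated on the log2(FPKM + 1) scale for each member in p53+/+ cells (squares) and p53-/- cells (triangles), 1 library per group, with dotted lines at -1 and 1. In p53+/+ cells Notch3, Jag2, Dll1 and Notch1 lie beyond 1 and Notch4 beyond -1, while every p53-/- value lies between -0.46 and 0.43.

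In p53-/- cells 0 of the 9 members past the filter were higher or lower after Adriamycin, in a comparison in which 0.432% of all genes were higher and 0.492% lower, so a count of 0 is near this background. The members' median was -0.05, against 0.07 over all genes. The bounds of untreated and treated cells lay apart for 2 of the 9 in p53-/- cells, Dll1 and Notch4, and for 7 of the 9 in p53+/+ cells, where Dll3 and Hes1 overlapped. Over 7656 genes past the filter that have 1 row and lie within their bounds in every library, 17.6% were apart in p53-/- cells and 60.5% in p53+/+ cells, so both counts are near this background.

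When the p53-/- response was subtracted from the p53+/+ response, 4 members came to 1 or more and 1 member to -1 or less, against 10.5% and 3.34% of all genes. The 4 were Notch3 at 2.89, Jag2 at 2.76, Notch1 at 1.41 and Dll1 at 1.30, and the 1 was Notch4 at -1.41. Jag1 stood at 0.94, Hes1 at 0.22, Notch2 at -0.12 and Dll3 at -0.19. This quantity contains the p53+/+ response, so the same genes head both comparisons by construction. With a pseudocount of 5 FPKM the value of Dll1 was 0.95 and that of Notch4 -0.82, and neither then reached the step.

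**Figure D4:**
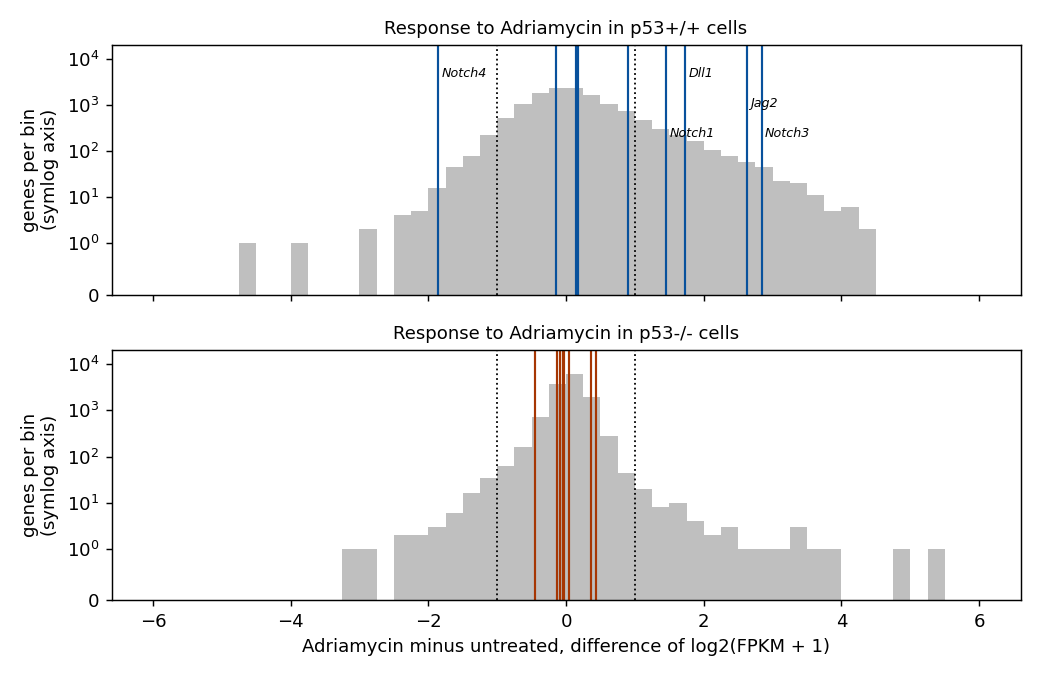
Number of genes per bin of 0.25 (symlog axis) by their Adriamycin response in p53+/+ cells (top) and p53-/- cells (bottom), over 13199 genes, with vertical lines for the 9 members past the filter and dotted lines at -1 and 1. In p53+/+ cells the members reach from -1.86 to 2.84, and in p53-/- cells from -0.46 to 0.43.

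Without treatment the genotypes differed less in these genes. Dll3 was the 1 member that was higher in p53-/- cells, by 1.16 or 3.94-fold, and 0 were lower, against 3.54% and 3.30% of all genes. Dll3 passed the filter through its p53-/- libraries alone, and it lost this call with a pseudocount of 5 FPKM, at 0.45. Of the members below the step, Jag2 (0.79), Jag1 (0.69) and Notch2 (0.51) had more transcript in p53-/- cells, and Notch4 (-0.85), Dll1 (-0.72), Hes1 (-0.59), Notch3 (-0.43) and Notch1 (-0.31) had less. The members' median was -0.09, against -0.05 over all genes. Fibroblast markers moved with this comparison, with 6 of 6 markers past the filter higher in p53-/- cells, and so did 3 of 4 trophoblast markers (Krt8, Krt18 and Hand1) and 2 of 4 neural markers (Nes and Pax6), which were higher, and 4 of 6 primitive endoderm markers, which were lower. Of these, Col1a2, Col3a1, Dcn and Nes reached 1 FPKM in p53-/- libraries alone, and Gata4, Gata6 and Sox7 in p53+/+ libraries alone. The marker counts thus rest in part on the filter and are a description only. The 6 trophoblast markers summed to 22.4 FPKM in the p53+/+ genotype and 57.8 FPKM in the p53-/- genotype. The collagen gene Col1a1 had 0.727 FPKM in the p53+/+ genotype and 151 FPKM in the p53-/- genotype. Their part in the levels of Dll3 and the other members was not tested.

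Between the treated libraries 4 members were lower in p53-/- cells and 1 was higher, in a comparison in which 13.1% of all genes were lower and 6.73% higher. The lower ones were Notch3 at -3.32, where p53+/+ cells had 11.1-fold more, Dll1 at -2.02, Jag2 at -1.97 and Notch1 at -1.71. Dll3 was higher, at 1.34, or 0.59 with a pseudocount of 5 FPKM. Notch2 (0.63) and Notch4 (0.56) had more transcript in p53-/- cells and Hes1 (-0.81) less, all below the step. Each library enters several of the 5 comparisons, so their values are not independent of each other. The bounds of the genotypes lay apart for 9 of the 9 members past the filter in either condition, against 50.5% of the same 7656 genes without and 66.1% with Adriamycin.

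The other genes of the pathway were taken from 5 lists with 51 genes, of which 50 had a row and 40 passed the filter. In p53+/+ cells 6 of the 40 were higher and 3 lower after Adriamycin, shares to be read against 11.4% and 2.81% of all genes. The median over the 50, which include genes below the filter, was 0.07, against 0.05 over the 13199 genes past it. In p53-/- cells 0 of the 40 were higher or lower, against 0.432% and 0.492%.

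Among genes of the Hes and Hey family and feedback, 4 of 6 past the filter were higher in treated p53+/+ cells and 0 lower. The shares over all genes were 11.4% and 2.81%. Of the 6 genes, Hey2, Heyl and Hes2 reached 1 FPKM in the treated p53+/+ library alone, so the count rests in part on the filter and is a description only. Nrarp, a small ankyrin repeat protein that is induced by Notch and dampens it, went from 1.28 to 8.39 FPKM in p53+/+ cells, a difference of 2.04, against 1.95 and 2.04 FPKM in the p53-/- libraries. Hes6, which antagonises Hes1, went from 6.06 to 19.0 FPKM against 6.56 and 7.88 FPKM in the p53-/- libraries. Hey2 went from 0.545 to 2.29 FPKM and Heyl from 0.0168 to 1.08 FPKM, both low. Quantile normalization took them to 0.70 and 0.80, and a pseudocount of 5 FPKM to 0.39 and 0.28, below the step. Heyl also fell short of it with median ratio scaling (0.995) and upper quartile scaling (0.987), while Hey2 did not (1.03 and 1.02). Hey1 went from 1.63 to 0.937 FPKM and was higher in treated p53-/- than in treated p53+/+ cells, at 3.68 FPKM, by 1.27, or by 0.55 with a pseudocount of 5 FPKM. Hes5, a Notch target of neural progenitors, stayed below 1 FPKM in all 4 libraries.

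Of the nuclear complex 0 genes were higher and 2 were lower in treated p53+/+ cells, out of 7 past the filter. The shares over all genes were 11.4% and 2.81%. Rbpj, the DNA-binding partner of the receptor, went from 84.1 to 36.1 FPKM with its 4 transcript rows summed against 52.2 and 47.1 FPKM in the p53-/- libraries. Its difference of -1.20 was -2.09 in the most abundant row alone and lay between -1.31 and -1.12 under the other alternatives. Processed copies of Rbpj exist in the mouse genome, and how reads shared with them were placed is not given, so its values are uncertain. Kat2b, an acetyltransferase recruited to the complex, went from 15.1 to 5.75 FPKM in p53+/+ cells against 7.13 and 7.80 FPKM in the p53-/- libraries. Its difference was -1.25, or -0.90 with a pseudocount of 5 FPKM, which ended the call. The Mastermind genes Maml2 and Maml3 stayed below 1 FPKM, and Maml1 lay between 7.45 and 10.6 FPKM.

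**Figure D5:**
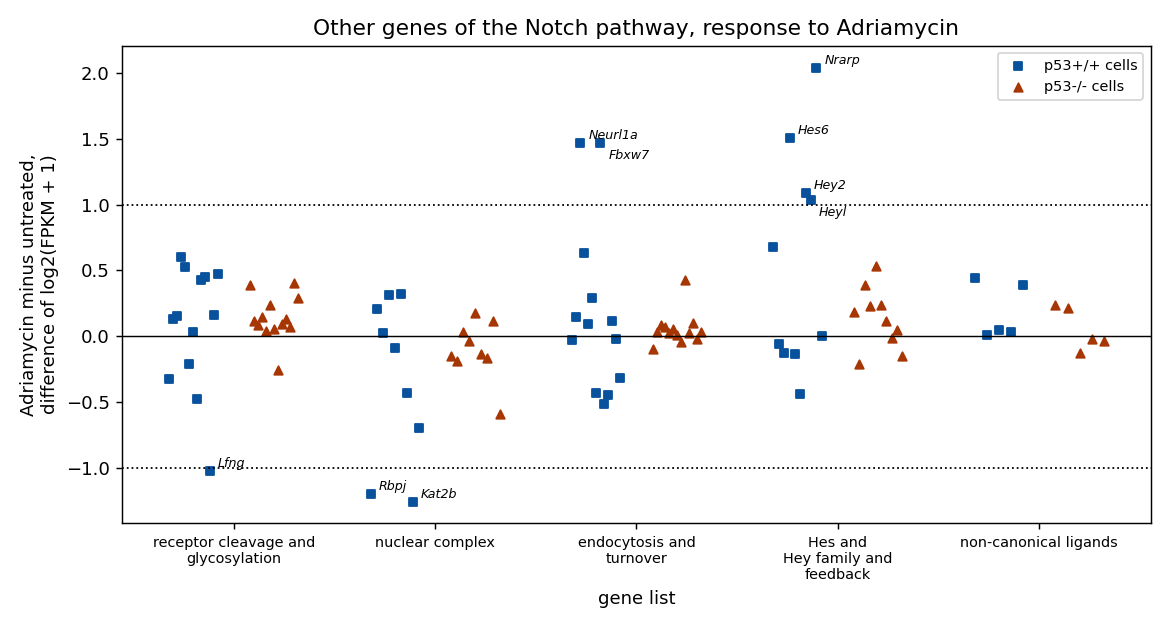
Adriamycin minus untreated on the log2(FPKM + 1) scale for 50 other genes of the pathway in 5 lists, 1 point per gene, in p53+/+ cells (squares) and p53-/- cells (triangles), with dotted lines at -1 and 1 and names beyond them. The 6 higher and 3 lower genes are all p53+/+ values, and no p53-/- value passes 1 in either direction.

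In the list of endocytosis and turnover 2 of 12 genes were higher and 0 lower in treated p53+/+ cells. The shares over all genes were 11.4% and 2.81%, so a count of 2 is near this background. Neurl1a, a ubiquitin ligase of the Neuralized family, which acts on ligands, went from 5.28 to 16.4 FPKM against 11.7 and 12.5 FPKM in the p53-/- libraries. Fbxw7, the substrate receptor that sends the cleaved receptor to degradation, went from 11.1 to 32.4 FPKM with its 3 rows summed against 5.10 and 4.92 FPKM in the p53-/- libraries. The Fbxw7 response was 1.47 summed and 3.62 in the most abundant row. Of 12 genes of receptor cleavage and glycosylation 0 were higher and 1 lower, the fringe enzyme Lfng, which extends sugars on the receptor (2.53 to 0.739 FPKM, -1.02, or -0.39 with a pseudocount of 5 FPKM). The gamma-secretase gene Ncstn (18.5 and 27.0 FPKM) and the protease gene Adam10 (8.00 and 6.19 FPKM) stayed within the step in p53+/+ cells. Poglut1, which adds glucose to the receptor, was lower in p53-/- than in p53+/+ cells before treatment (13.1 against 30.5 FPKM, -1.16, or -0.97 with a pseudocount of 5 FPKM) and after it (14.5 against 42.0 FPKM, -1.47). Psen2 was lower after treatment (5.50 against 12.8 FPKM, -1.09). Its difference was -3.73 in the most abundant row, and it fell short of the step with a pseudocount of 5 FPKM, at -0.76, and under quantile normalization, at -0.97.

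Non-canonical ligands showed 0 of 3 genes higher or lower with treatment in either genotype. The shares over all genes were 11.4% and 2.81% in p53+/+ cells, and 0.432% and 0.492% in p53-/- cells. Mfap5, a microfibril protein, stood at 1.53 FPKM in untreated p53+/+ and 5.41 FPKM in untreated p53-/- cells, and the Delta-like Dlk1 at 0.493 and 2.10 FPKM, both counted as higher in p53-/- cells at 1.34 and 1.05. With a pseudocount of 5 FPKM these were 0.67 and 0.37. Of all genes 3.54% were higher between the untreated genotypes. The fibroblast markers given above moved with the same comparison, and their part was not tested.

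For the 3 members with the widest range, genes with the most similar pattern of differences over the 4 libraries were sought. The search covered 9459 genes with at least 5 FPKM in a library. It used the Euclidean distance between centred log2(FPKM + 1) profiles, and centring removes the level of each gene. Nearest to Notch3 were Mlana (distance 0.0509), Plcd4 (0.0814) and 1700003M07Rik (0.0948), nearest to Jag2 were Cryab (0.173), Sfi1 (0.174) and Cald1 (0.258), and nearest to Dll1 were Nfatc2 (0.0218), Abcg1 (0.100) and Lrrc57 (0.126). With 4 libraries such matches are common, and 76 genes lay within 0.5 of Notch3, 34 within 0.5 of Jag2 and 208 within 0.5 of Dll1. A short distance does not mean a similar level or a similar ratio of FPKM. In the p53+/+ genotype Plcd4 went from 0.352 to 9.41 FPKM, and Notch3 from 11.6 to 89.3 FPKM. The pseudocount makes changes of low genes such as Plcd4 look smaller, so this match rests in part on it.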

How the data were processed

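Poly(A) RNA of 4 mouse ES cell cultures, 1 library per group, was measured by RNA-seq. The authors deposited 1 transcript table per library with FPKM, its lower and upper bounds, and read coverage (signal), in the Cufflinks layout per the file headers. Per the submitters' processing notes the tools were Cufflinks, TopHat, TopHat2 2.0.5 and CASAVA 1.8.1, in no given role or order, and the build was mm9. The annotation is not given in the sources used here. An exome enrichment kit is named, per the labels' protocols, so transcript representation could differ from that of plain poly(A) libraries. Coverage times the deposited transcript length, summed, gave the aligned bases.

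Of 30769 rows, 29700 were named from the RefSeq gene table of GRCm38.p6 and 178 from GENCODE M21, and 891 stayed unnamed and stood for themselves. Short RNA rows (740) were left out, rows of every status were kept, and FPKM was summed per gene. Positions are those of the tables in mm9, counted from 1. All 10 members lay within their own bounds in every library, unlike 1528 to 2040 rows per library with status OK. Differences used a pseudocount of 1 FPKM, a filter of 1 FPKM in at least 1 library and a step of 1. This step is 2-fold in FPKM + 1, not in FPKM, and 5 comparisons were made with no test. The members and lists were chosen with earlier results of these data known. The named genes were all 10 members, up to 3 genes per list and comparison past the step, the 3 nearest genes to each of the 3 widest-ranging members, and Trp53, Mdm2 and Cdkn1a. Genes named beyond these (Heyl in the p53+/+ response, Hes2, Hes5, Maml1, Maml2, Maml3, Ncstn and Adam10, the markers and Gm14207) were chosen after their values were seen. Cdkn1a went from 26.2 to 85.8 FPKM in the p53+/+ genotype and from 18.0 to 24.6 FPKM in the p53-/- genotype. Dlk2 was not analysed here, and some genes of the lists are not reported here and were left out of the counts. The neural, endothelial and trophoblast marker lists of 6 genes each summed to 35.5 to 151, 25.9 to 37.7 and 21.5 to 57.8 FPKM over the libraries. Python 3.11.15, pandas 2.3.3, numpy 2.4.6 and matplotlib 3.10.9 were used, and the calculations were tested on simulated data. As alternatives, the pseudocount was 0.1 or 5 FPKM, the filter absent or at 5 FPKM, and scaling by upper quartile, median ratio or quantiles, the most abundant row alone, rows within their bounds alone and a 1.5-fold step were tried.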

Additional observations from a re-analysis of the deposited data

Results flagged for a closer look

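Notch3 and Jag2 stood higher after Adriamycin in p53+/+ cells, while their p53-/- differences had a minus sign that the overlapping bounds do not establish as a direction. The p53+/+ response minus the p53-/- response was 2.89 for Notch3 and 2.76 for Jag2 on the log2(FPKM + 1) scale. The p53-/- values were -0.05 and -0.14, and the difference between the genotypes was not tested because each group has 1 library.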

How the results depend on the processing

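Each of the 9 members past the filter was recomputed under every alternative in the 5 comparisons. Of 445 such values 430 stayed on the same side of the step, 4 fell below it, 11 passed it and 0 changed sign while counted. Many of the 430 could not have moved. The changed filters, the most abundant row alone and rows within their bounds alone leave a kept member's value as it is. Most of the 11 passed because the 1.5-fold step is lower, with the value unchanged. Only Jag1 passed a step of 1, with a pseudocount of 0.1 FPKM. The 5 calls of the p53+/+ response held at a step of 1 under all alternatives run, with Notch3 between 2.50 and 2.93, Jag2 between 2.26 and 2.73, Dll1 between 1.13 and 1.97, Notch1 between 1.14 and 1.54 and Notch4 between -2.28 and -1.07. With a pseudocount of 5 FPKM the members higher in p53-/- cells went from 1 to 0, untreated and treated alike, and the members whose p53+/+ response fell short of the p53-/- response from 1 to 0. A filter of 5 FPKM removed Dll3 and also left 0 members higher in p53-/- cells in either condition. A 1.5-fold step counted 3 members higher and 3 lower in untreated p53-/- cells, against 10.4% and 11.1% of all genes. In treated p53-/- cells it counted 2 higher and 5 lower, against 17.7% and 23.5% of all genes, so the count of 2 is near this background. Over all genes, quantile normalization moved the share of higher genes among those counted from 80.2% to 65.3% in the p53+/+ response, from 75.8% to 65.0% in the difference of responses, and from 33.9% to 44.2% between the treated genotypes, and the median p53+/+ response from 0.05 to -0.10. In the p53-/- response, with few genes counted, that share went from 46.7% to 64.1% with a pseudocount of 0.1 FPKM, 56.8% with rows within their bounds alone and 32.5% with a filter of 5 FPKM. The backgrounds of 11.4% higher and 2.81% lower in the p53+/+ response became 4.82% and 1.17% with a pseudocount of 5 FPKM, and 16.7% and 4.76% with 0.1 FPKM. Those of 0.432% and 0.492% in the p53-/- response became 0.152% and 0.235%, and 1.5% and 0.841%. With a pseudocount of 5 FPKM the other backgrounds became 1.05% and 0.955% between the untreated genotypes, 2.57% and 6.20% between the treated ones, and 4.7% and 1.2% for the difference of responses. The most abundant row alone, or rows within their bounds alone, left the members' values as they were, since each has 1 row and lies within its bounds. The changed filters did so too, since a filter only decides which genes are kept. No paired analysis was possible because each group has 1 library. Depth limits Dll4 most, with 0.791 to 2.97 kilobases of aligned sequence per library, against 265 to 3621 for Notch3.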
